A study of Homo sapiens with 13 samples.

Results

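The promoters of the genes for mitochondrial ribosomal proteins were examined for chromatin accessibility in T98G cells, a human glioblastoma line, arrested in G1 or in mitosis. A promoter peak was taken as an ATAC-seq peak that overlaps the transcription start site (TSS) of any transcript of a protein-coding gene whose symbol is MRPL or MRPS followed by a number, in GENCODE release 44 lifted to GRCh37. The annotation held 78 such genes, and 76 of them had a promoter peak. They gave 78 of the 129347 peaks of the series, on 21 chromosomes, beside 16053 promoter peaks of other genes. The rule uses gene symbols and TSS positions and no measured value.

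ATAC-seq marks open DNA by the insertion of a transposase. The G1 group held 3 libraries of cells starved of serum for 72 h. The M-phase group held 3 libraries of cells starved for 48 h, released for 36 h into medium with nocodazole, which blocks the spindle, and collected by shaking off the rounded mitotic cells. All came from the same unmodified line, and no source used here says whether the replicates were separate cultures, so that p-values measure the spread between these libraries, which may be technical. The G1 libraries were sequenced on a HiSeq, and each M-phase replicate on a HiSeq and a NextSeq, so phase, serum release and platform cannot be told apart in any comparison below. Values are reads in a peak that the authors scaled to the smallest library. They are called scaled counts here, and their totals over all peaks were 4191845 to 5092426 in G1 and 5475345 to 6000423 in M-phase. Promoter peaks of all genes together took 51.2 to 54.5% of the scaled counts in G1 and 63.1 to 64.9% in M-phase. Of 6 glial tumour markers, VIM, SOX9, CD44 and OLIG2 had a promoter peak, and NES and GFAP had none. Among markers of blood, epithelium, liver and endothelium, EPCAM had a promoter peak, PTPRC, CD3E, CDH1 and ALB had none, and PECAM1 was not matched in the annotation.

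Mitochondria keep their own ribosome, which translates the few proteins encoded in the mitochondrial genome, all of them parts of the respiratory chain and ATP synthase. Its RNA is made inside the organelle, but every one of its proteins is encoded in the nucleus, made in the cytoplasm and imported. Some of these proteins descend from bacterial ribosomal proteins and others were added in the mitochondrial lineage. Their promoters are mostly CpG-rich, and nuclear respiratory factor 1 (NRF1), the ETS family factor GABP (NRF2) and YY1 are known regulators of nuclear genes for mitochondrial proteins.

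The promoter sequences of the 4 largest rises and of the largest fall in M-phase are shown, since they carry the extremes of the comparison that follows. Each runs 5′ to 3′ on the gene's strand over the 250 bases before the TSS and the first 50 bases from it, read from GRCh37. The windows lie at chr19:3762430-3762729 on the plus strand for MRPL54, chr19:39421334-39421633 on the plus strand for MRPS12, chr17:48450496-48450795 on the minus strand for MRPL27, chr11:64889543-64889842 on the plus strand for MRPL49 and chr9:104160851-104161150 on the minus strand for MRPL50. Capitals mark the letters CCGGAAG (the ETS core), AAGATGGC (a YY1 site) or GCGCATGC (an NRF1 site), on either strand.
MRPL54: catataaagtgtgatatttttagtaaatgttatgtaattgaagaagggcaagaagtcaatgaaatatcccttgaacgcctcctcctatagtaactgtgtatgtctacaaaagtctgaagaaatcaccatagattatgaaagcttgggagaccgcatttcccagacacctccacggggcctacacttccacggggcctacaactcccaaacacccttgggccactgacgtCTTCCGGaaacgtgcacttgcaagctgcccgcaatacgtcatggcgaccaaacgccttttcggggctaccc
MRPS12: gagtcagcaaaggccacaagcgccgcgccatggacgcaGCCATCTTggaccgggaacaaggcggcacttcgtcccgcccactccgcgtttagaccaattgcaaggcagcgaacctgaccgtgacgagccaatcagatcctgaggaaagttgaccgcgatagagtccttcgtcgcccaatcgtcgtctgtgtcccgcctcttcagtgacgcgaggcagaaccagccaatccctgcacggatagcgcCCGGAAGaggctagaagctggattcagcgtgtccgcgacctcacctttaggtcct
MRPL27: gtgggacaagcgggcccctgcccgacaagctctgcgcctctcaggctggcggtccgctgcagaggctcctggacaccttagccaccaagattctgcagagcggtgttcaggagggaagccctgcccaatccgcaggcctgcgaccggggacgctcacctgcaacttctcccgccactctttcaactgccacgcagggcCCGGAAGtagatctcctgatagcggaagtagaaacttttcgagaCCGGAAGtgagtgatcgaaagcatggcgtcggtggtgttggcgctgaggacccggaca
MRPL49: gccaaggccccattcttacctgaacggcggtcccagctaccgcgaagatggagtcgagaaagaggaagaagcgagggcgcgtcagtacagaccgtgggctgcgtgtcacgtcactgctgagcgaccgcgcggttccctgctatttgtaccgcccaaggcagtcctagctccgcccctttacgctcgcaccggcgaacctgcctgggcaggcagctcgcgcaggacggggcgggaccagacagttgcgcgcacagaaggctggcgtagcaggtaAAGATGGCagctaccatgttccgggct
MRPL50: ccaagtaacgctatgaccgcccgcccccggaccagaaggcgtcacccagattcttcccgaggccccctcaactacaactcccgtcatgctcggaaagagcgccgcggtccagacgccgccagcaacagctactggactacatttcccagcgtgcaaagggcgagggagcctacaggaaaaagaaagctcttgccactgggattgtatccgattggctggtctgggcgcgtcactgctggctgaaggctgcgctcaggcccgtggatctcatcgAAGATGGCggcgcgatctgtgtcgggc
Positions are counted from the TSS as 1, with the base before it as -1, and a match is given by its leftmost base as printed. MRPL54 held the ETS letters on the reverse strand at position -21, and MRPL27 held them forward at positions -52 and -8. MRPS12 held them at position -5 and the YY1 letters on the reverse strand at position -212. In MRPL49, which rose, and in MRPL50, which fell, the YY1 letters stood forward at the same position 24. None of the 5 windows held the NRF1 letters.

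The question of the comparison was which accessible sites change between G1 and mitosis. At the mitochondrial ribosomal promoters the scaled counts were mostly higher in M-phase. Of the 78 peaks, 38 were called higher in M-phase, 3 were called lower and 37 were not called (limma with a mean-variance trend on log2(scaled count + 8), Benjamini-Hochberg adjusted p under 0.05 over 73121 tested peaks). All 78 had passed the filter on low values. Over all tested peaks 14.3% were called higher and 13.1% lower, against 48.7% and 3.85% of the members. Promoters as a class stood above that background, since 43.1% of the 15422 other promoter peaks tested were called higher and 5.95% lower. For other protein-coding promoters the shares were 47.1% and 5.3%, close to those of the members. The share of calls that went upward depended on the scaling: with equal totals in peaks 21 members were called higher and 7 lower, where 8.67% of all tested peaks were called higher and 24.7% lower. After a loess correction for abundance 21 members were called higher and 10 lower, where the shares over all tested peaks were 10.8% and 13.6%. Of the 38 peaks called higher, 20 kept the call after the loess correction, as did the 3 called lower.

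**Figure D1:**
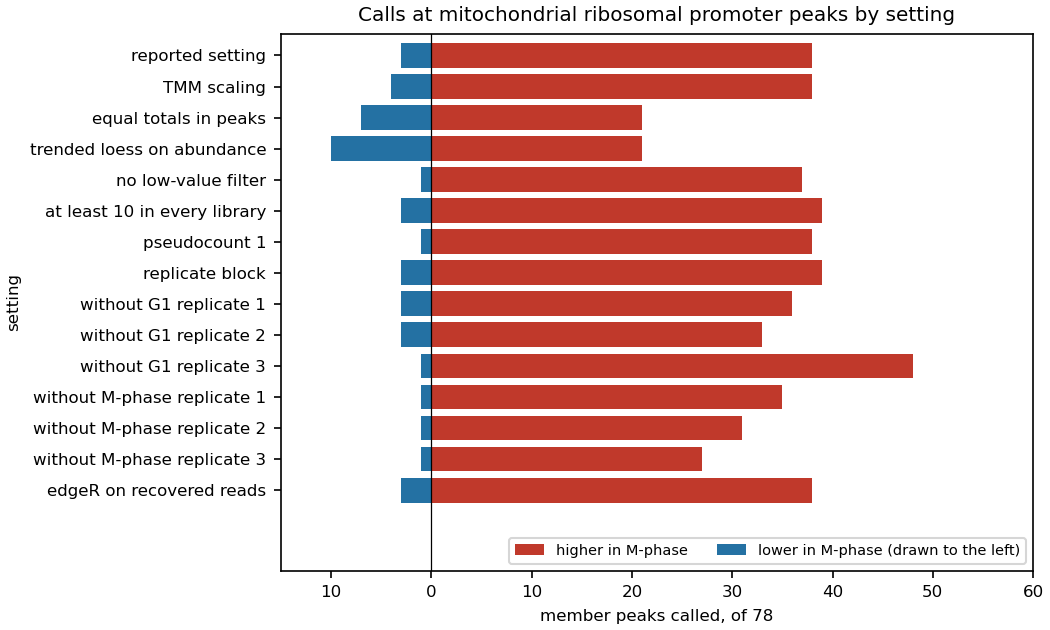
Number of member peaks called (x axis) higher in M-phase, drawn to the right of 0, and lower, drawn to the left of 0, under the reported setting and each alternative (y axis). The higher calls ran from 21 to 48 and outnumbered the lower calls, 1 to 10, in every setting drawn, and the fewest higher calls came with equal totals in peaks and after the loess correction.

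The median log2 change over the members was 0.485, on the log2(scaled count + 8) scale, with the central 50% of peaks between 0.158 and 0.783. It was 0.023 over all tested peaks, 0.387 over other promoter peaks and 0.447 over other protein-coding promoter peaks. The change was positive at 68 members and negative at 10, and positive at 48 with equal totals in peaks, which moved the median of all tested peaks to -0.23, and at 47 after the loess correction. All 3 M-phase libraries lay above all 3 G1 libraries at 43 members (55.1%), against 19.7% of all tested peaks. The share was 48.5% over other promoter peaks and 52.2% over other protein-coding promoter peaks. Over other promoter peaks within the interquartile range of the members' mean counts it was also 55.1%. The reverse separation was seen at 4 members, against 18.6% of all tested peaks and 1345 of the 15422 other promoter peaks tested. The remaining 31 members overlapped between the phases.

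**Figure D2:**
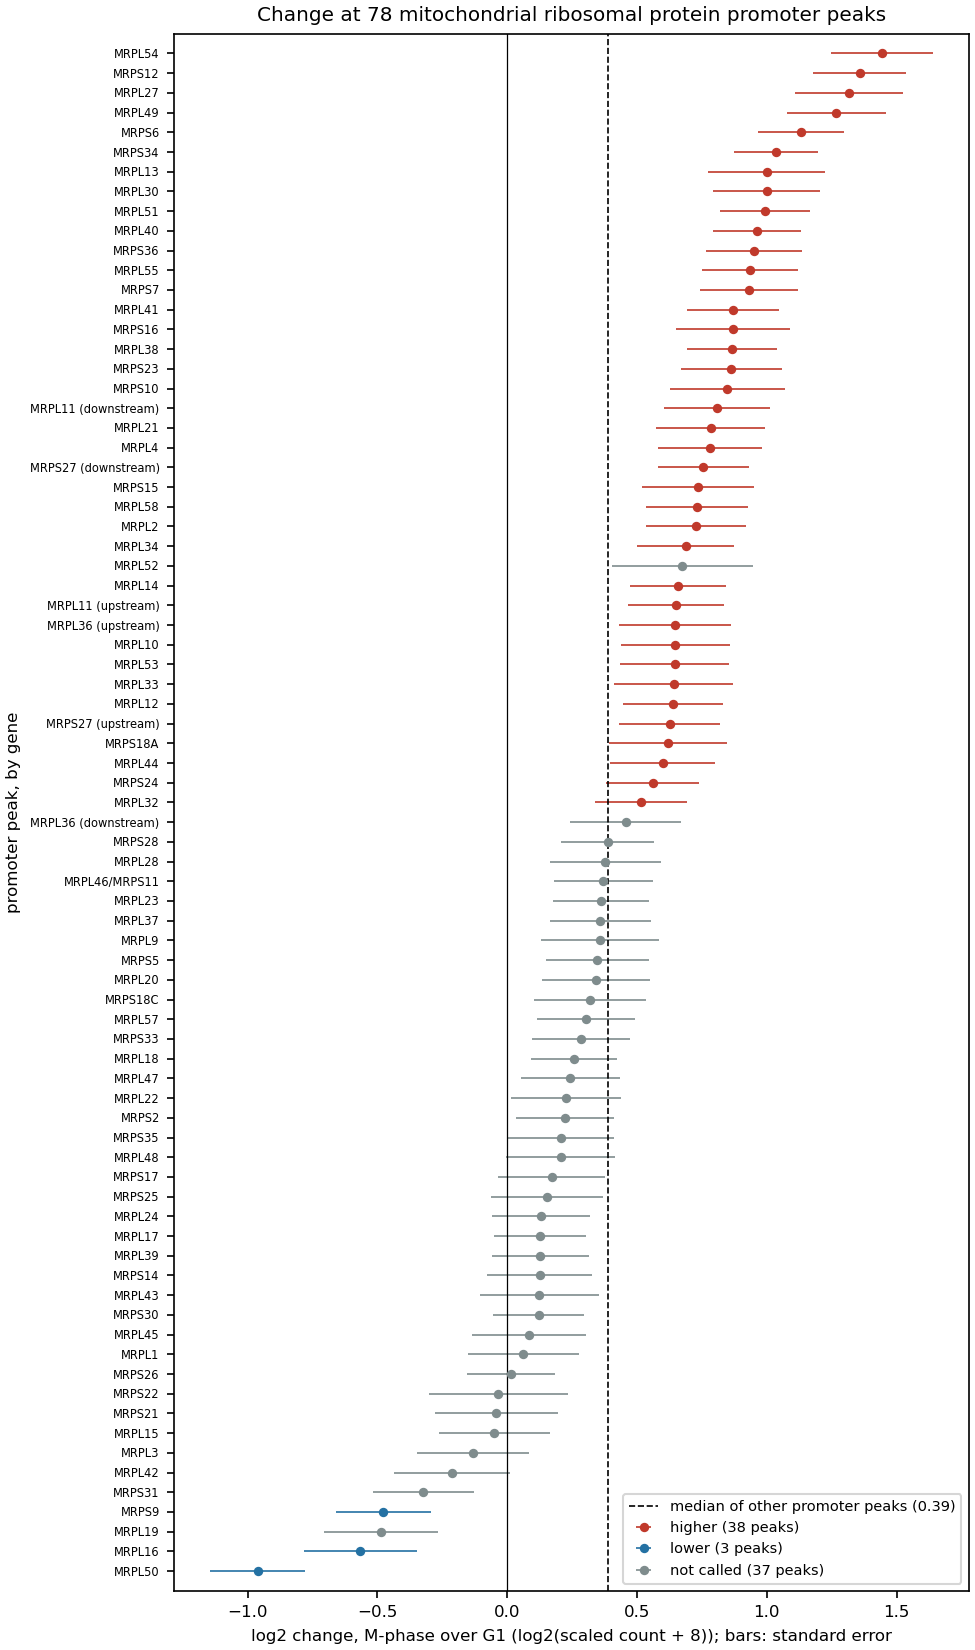
Log2 change from G1 to M-phase (x axis, on the log2(scaled count + 8) scale) at each of the 78 promoter peaks (y axis, ordered by change), with the standard error as bars and the median of other promoter peaks as a dashed line. The changes ran from -0.96 at MRPL50 to 1.44 at MRPL54 without a gap between called and uncalled peaks; for genes with 2 promoter peaks, upstream and downstream name them by the direction of transcription.

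Since the change at promoters grew with their mean count, each member was set beside other promoter peaks whose mean over the 6 libraries lay within 10% of its own, which gave 396 to 1397 peaks per member. Read this way the family stood near the middle of its class. The members lay above the median of their comparators in 42 of 78 cases, and the median difference was 0.075 on the log2 scale. The median percentile of a member among its comparators was 56.8, with the central 50% of members between 31.4 and 77.2. At the ends, 9 members lay above the 90th percentile and 6 below the 10th percentile. Within the interquartile range of the members' mean counts (99.9 to 233), 50% of 38 members and 47.6% of 5237 other promoter peaks were called higher, with median changes of 0.489 and 0.463.

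The median change of the members did not rise from each quartile of mean count to the next. Each quartile held only 19 or 20 members, and their changes overlapped widely between quartiles. Whether the members depart from the rise with mean count was not tested. In the lowest quartile of mean count, 6 of 20 members were called higher and 1 lower, with a median change of 0.18. Of the 3340 other promoter peaks in that range, 534 were called higher and 339 lower, with a median of 0.057. The median mean count of those peaks was 65.7, lower than that of the members there, so the sets were not matched for mean count. In the next 2 quartiles, 10 of 19 (52.6%) and 9 of 19 members (47.4%) were called higher, with medians of 0.60 and 0.37. For the other promoters the shares called higher were 40.8% and 56.0%, with medians of 0.387 and 0.548. None of these members was called lower, beside 5.01% and 3.88% of the other promoters. In the highest quartile 13 of 20 members (65.0%) were called higher and 2 lower (10.0%), with a median of 0.702. Of the other promoters there, 71.1% were called higher and 2.36% lower, with a median of 0.725. Across the 78 peaks Pearson's r of the change was 0.2 with the log2 mean, 0.24 with the GC content and 0.15 with the log2 width, given as descriptions over peaks of the same 6 libraries.

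**Figure D3:**
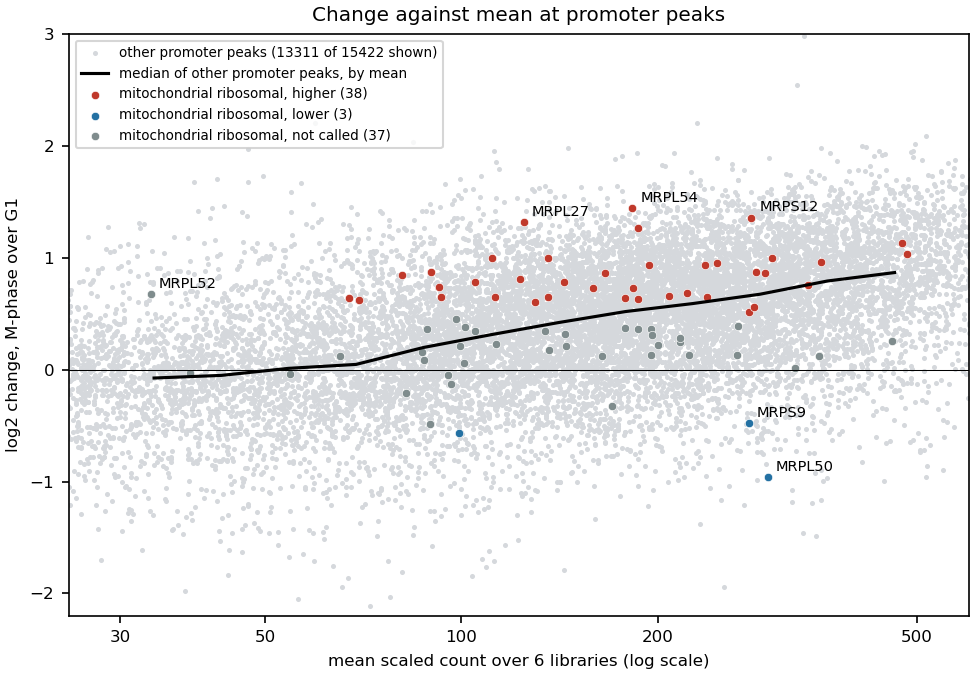
Log2 change from G1 to M-phase (y axis) against the mean scaled count over the 6 libraries (x axis, log scale) for the members, coloured by call, and for other promoter peaks in grey with their median by mean as a line. Members scatter on both sides of the line, which rises with the mean; MRPL54, MRPL27 and MRPS12 stand well above it and MRPS9 and MRPL50 well below.

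As a share of all scaled counts in peaks, the members together took 0.252, 0.244 and 0.267% in G1 replicates 1 to 3 and 0.278, 0.287 and 0.291% in the M-phase replicates. As a share of the counts in promoter peaks they went the other way, with 0.466, 0.478 and 0.49% in G1 and 0.441, 0.442 and 0.451% in M-phase. The phases did not overlap in either measure, and the 2 measures ran in opposite directions. The scaled count of the median member was 118, 115 and 144 in the G1 libraries and 171, 193 and 199 in the M-phase libraries. Replicate 3 gave the highest G1 value at 60 of the 78 members, and without it 48 members were called higher and 1 lower.

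The largest rise was at MRPL54, a protein of the large subunit with no bacterial counterpart. Its peak at chr19:3762555-3763206 had 88.5, 83.6 and 111 scaled counts in G1 and 234.8, 324.3 and 254.5 in M-phase. Every M-phase library held over 2 times the count of any G1 library, and the log2 change was 1.44 ± 0.195 (SE, n = 3 and 3, adjusted p = 4.43e-09 by limma). It lay 0.916 above the median of promoter peaks of similar mean. With 280.3 scaled counts per kb, it was also among the 4 members with the highest mean per kb of peak.

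MRPS12 encodes the counterpart of bacterial S12, the decoding-site protein known from streptomycin resistance. Its peak at chr19:39420736-39421961 had 188.9, 130.5 and 142 scaled counts in G1 and 377.8, 419.5 and 410.0 in M-phase. The groups were far apart, with a log2 change of 1.36 ± 0.18 (SE, adjusted p = 2.59e-09 by limma). The peak also holds the TSS of SARS2, which encodes the mitochondrial seryl-tRNA synthetase, so its reads cannot be assigned to either gene. MRPL27 encodes the counterpart of bacterial L27, a protein near the peptidyl transferase centre. Its peak at chr17:48449672-48450952, shared with EME1, had 53.7, 68.0 and 84 scaled counts in G1 and 168.9, 190.8 and 181.9 in M-phase. The lowest M-phase value was 2 times the highest G1 value, and the log2 change was 1.32 ± 0.208 (SE, adjusted p = 2.94e-07 by limma).

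MRPL49, a mitochondria-specific protein of the large subunit, has a divergent promoter with FAU, which encodes a cytoplasmic ribosomal protein fused to a ubiquitin-like domain. The peak at chr11:64889016-64890117 had 97.4, 109.4 and 112 scaled counts in G1 and 256.2, 257.9 and 287.3 in M-phase. The libraries of each phase lay close together and the log2 change was 1.27 ± 0.19 (SE, adjusted p = 8.2e-08 by limma). MRPS6, the counterpart of bacterial S6, shares its peak at chr21:35445168-35447059 with SLC5A3, a myo-inositol transporter. Its scaled counts were 285.3, 254.7 and 343 in G1 and 564.0, 739.6 and 659.2 in M-phase, a log2 change of 1.13 ± 0.165 (SE, adjusted p = 3.86e-08 by limma). The peak was among the deepest of the family, and its change lay only 0.247 above that of promoters of similar mean.

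The peak of MRPS34, a small-subunit protein with no bacterial counterpart, spanned chr16:1821119-1824019 and was the widest of the family at 2901 bp. It also holds TSSs of EME2 and NME3. Its scaled counts were 303.2, 330.5 and 306 in G1 and 578.0, 635.4 and 746.3 in M-phase, a log2 change of 1.03 ± 0.162 (SE, adjusted p = 2.61e-07 by limma). After the loess correction the change was 0.194 and was not called (adjusted p = 0.205 by limma). MRPL13 and MRPL30 were the other peaks with a log2 change of at least 1, which makes 8 in all.

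**Figure D4:**
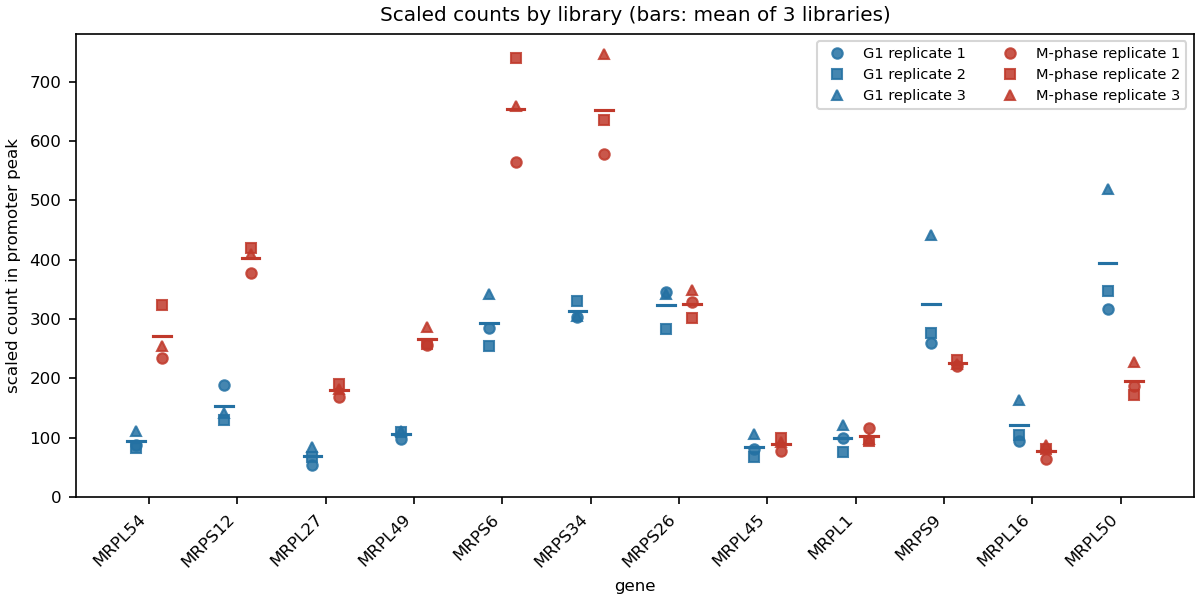
Scaled counts in the promoter peak (y axis) of 12 member genes (x axis) in each G1 and M-phase library, with a bar at the mean of the 3 libraries of a phase. The M-phase points of the 6 genes on the left all lie above the G1 points, those of MRPS26, MRPL45 and MRPL1 overlap them, and those of MRPS9, MRPL16 and MRPL50 lie below.

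Falls were few. MRPL50, a mitochondria-specific protein of the large subunit, had the largest. Its peak at chr9:104160315-104161527, which also holds the TSS of the zinc finger gene ZNF189 on the other strand, had 317.1, 346.9 and 519 scaled counts in G1 and 186.6, 172.2 and 227.1 in M-phase. No M-phase library reached any G1 library, and the log2 change was -0.96 ± 0.182 (SE, adjusted p = 1.51e-05 by limma). It lay at the 0.35th percentile of promoter peaks of similar mean, and -1.64 from their median. Among all alternatives run it was the only member called lower in every one.

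MRPS9 encodes the counterpart of bacterial S9. Its peak at chr2:105653993-105655019 had 260.5, 276.6 and 441 scaled counts in G1 and 221.6, 231.2 and 223.7 in M-phase. The groups did not overlap but G1 replicate 3 stood well above the other G1 libraries, and the log2 change was -0.48 ± 0.182 (SE, adjusted p = 0.0396 by limma). MRPL16, the counterpart of bacterial L16, had 95.4, 103.9 and 164 scaled counts in G1 and 64.7, 80.3 and 87.6 in M-phase at chr11:59577797-59578545. Here too the phases were separate and replicate 3 was the highest of G1, and the log2 change was -0.57 ± 0.217 (SE, adjusted p = 0.0417 by limma). Without G1 replicate 3 the changes were -0.24 at MRPS9 and -0.34 at MRPL16 and neither was called. Both also lost the call without any one of the M-phase replicates, without the filter on low values and with a pseudocount of 1, which left 1 member called lower in each case.

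Further members stood below promoters of similar mean without being called lower. MRPS31 had 186.9, 161.7 and 220 scaled counts in G1 and 136.8, 127.3 and 188.6 in M-phase, and its log2 change of -0.32 (adjusted p = 0.228 by limma) lay -0.82 from the median of its comparators. With equal totals in peaks its change was -0.66 and was called. MRPS26, a mitochondria-specific protein of the small subunit, had 345, 283.6 and 342 scaled counts in G1 and 328.3, 301.6 and 348.9 in M-phase. These phases overlapped fully, with a log2 change of 0.02 ± 0.171 (SE, adjusted p = 0.963 by limma), which lay -0.71 from the median change of promoters of similar mean. With equal totals in peaks the direction at MRPS26 flipped to -0.331, and after the loess correction to -0.681 (adjusted p = 1.05e-05 by limma). Of the 10 members called lower after that correction, 7 were not called before it: MRPL17, MRPL18, MRPL19, MRPL39, MRPS26, MRPS30 and MRPS31.

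The other members with the smallest changes were of lower count. MRPS22 had 25.8, 44.5 and 45 scaled counts in G1 and 21.0, 44.5 and 49.6 in M-phase, a log2 change of -0.03 ± 0.267 (SE). The log2 changes were -0.04 at MRPS21, -0.05 at MRPL15, 0.06 at MRPL1 and 0.08 at MRPL45. In all of these peaks the phases overlapped, and a standard error above 0.2 left moderate changes undetectable at this depth.

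Mean scaled counts per kb of peak ran from 54.6 to 313 over the members, with a median of 148 beside 121 for other promoter peaks. The highest was at MRPS36, which is named with the family but is a component of the 2-oxoglutarate dehydrogenase complex. It had 168, 134.4 and 195 scaled counts in G1 and 281.4, 396 and 306 in M-phase, a log2 change of 0.95 ± 0.185 (SE, adjusted p = 2.49e-05 by limma). Next to MRPL54 came MRPS28 with 278.3 and MRPL38 with 276.9 per kb. MRPL38, a mitochondria-specific protein of the large subunit, rose from 188.9, 194.5 and 232 to 369.5, 375.4 and 392.2 scaled counts, a log2 change of 0.87 ± 0.175 (SE, adjusted p = 4.9e-05 by limma). After the loess correction its change was 0.24 and was not called (adjusted p = 0.178 by limma). MRPS28 was not called, with a log2 change of 0.39 (adjusted p = 0.0982 by limma), though no M-phase library was below the highest of G1. Without G1 replicate 3 it was called, at 0.52.

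The lowest mean per kb was at MRPL52, with 54.6. Its peak, shared with the amino acid transporter gene SLC7A7, had 31.8, 14.8 and 25 scaled counts in G1 and 27.6, 51.9 and 49.1 in M-phase, so that M-phase replicate 1 lay within the G1 range. The log2 change of 0.68 ± 0.273 (SE) missed the threshold (adjusted p = 0.0548 by limma), and it lay 0.759 above promoters of similar mean. It was called with the replicate block, with at least 10 scaled counts in every library, after the loess correction (0.83, adjusted p = 0.0164 by limma), and without G1 replicate 1, G1 replicate 3 or M-phase replicate 1. MRPS18A, which despite its name belongs to the large subunit, had 57.7, 59.4 and 43 scaled counts in G1 and 77.0, 87.8 and 92.4 in M-phase, a log2 change of 0.62 ± 0.228 (SE, adjusted p = 0.0322 by limma). It was no longer called with equal totals in peaks, without the filter or without any single M-phase replicate or G1 replicate 3. MRPS10, the counterpart of bacterial S10, rose from 57.7, 50 and 59 to 99.3, 102.2 and 117.9 scaled counts (log2 change 0.85, adjusted p = 0.00172 by limma), and at 0.735 above promoters of similar mean it was among the farthest above them.

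The genes MRPL11, MRPL36 and MRPS27 had 2 promoter peaks each, and the log2 change was positive at all 6 peaks. MRPL11, the counterpart of bacterial L11, had its canonical TSS in the peak at chr11:66205622-66206695, with 74.6, 103.1 and 85 scaled counts in G1 and 178.4, 140.1 and 157.8 in M-phase, a log2 change of 0.81 (adjusted p = 0.00131 by limma). Its other peak at chr11:66233755-66234868 holds the TSS of PELI3 and that of an MRPL11 transcript without a defined coding sequence. It rose from 230.6, 151.6 and 170 to 239.8, 302.4 and 331.5 scaled counts, a log2 change of 0.65 (adjusted p = 0.00459 by limma), and was no longer called without M-phase replicate 3, with equal totals in peaks (0.31) or after the loess correction (0.10, adjusted p = 0.651 by limma). At MRPS27, a pentatricopeptide-repeat protein of the small subunit, the upstream peak shared with PTCD2 changed by 0.63 (adjusted p = 0.00962 by limma) and the downstream peak by 0.76 (adjusted p = 0.000384 by limma). After the loess correction neither was called, with changes of 0.18 and 0.06 (adjusted p = 0.413 and 0.774 by limma), and the upstream peak also lost the call with equal totals in peaks and without G1 replicate 2 or M-phase replicate 2.

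At MRPL36, the counterpart of bacterial L36, the peak over the canonical TSS had 82.5, 66.4 and 97 scaled counts in G1 and 114.5, 115 and 113.1 in M-phase, a log2 change of 0.46 that was not called (adjusted p = 0.103 by limma). The peak upstream of it, which it shares with the complex I gene NDUFS6, changed by 0.65 and was called (adjusted p = 0.0173 by limma). That call was lost with equal totals in peaks, after the loess correction (adjusted p = 0.0514 by limma), and without G1 replicate 3, M-phase replicate 1 or M-phase replicate 3, and the peak over the canonical TSS was called without G1 replicate 3 (0.57). The difference between the peaks of a gene was not tested. MRPL46, of the large subunit, and MRPS11, of the small subunit, share 1 divergent peak, which had 133.2, 147.7 and 184 scaled counts in G1 and 203.9, 219.2 and 181.4 in M-phase and was not called (log2 change 0.37, adjusted p = 0.147 by limma). For MRPL35 the nearest peak lay 1127 bp from a TSS, at chr2:86427713-86427849 with a mean of 4.7 scaled counts, and was not tested. For MRPS18B the nearest peak among those analysed here lay 515626 bp away, so that its promoter was not analysed here and its accessibility is not known from these values.

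Split by subunit, 26 of 52 large-subunit peaks were called higher and 2 lower, with a median log2 change of 0.557. Of 26 small-subunit peaks 11 were called higher and 1 lower, with a median of 0.359. The shared MRPL46 and MRPS11 peak counts in both and MRPS36 in neither. Proteins with a bacterial counterpart had 23 of 47 peaks called higher and 2 lower (median 0.456), and mitochondria-specific proteins 14 of 31 higher and 1 lower (median 0.37). Over other protein-coding promoter peaks 47.1% were called higher and 5.3% lower, and over all tested peaks 14.3% and 13.1%. In each member class the share called higher was near that of other protein-coding promoter peaks. The differences between the member classes were not tested.

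Within the large subunit, 2 structural neighbourhoods chosen after their values were seen are given as a description. The stalk and its base, where elongation factors bind, are formed by MRPL10, MRPL11 and MRPL12. All 4 of their peaks were called higher, with log2 changes of 0.64 to 0.81, between 0.065 and 0.421 above promoters of similar mean. Of other protein-coding promoter peaks 47.1% were called higher. The 4 include the second MRPL11 peak, which holds the TSS of PELI3 and not the canonical TSS of MRPL11. It was the one that lay 0.065 above promoters of similar mean. After the loess correction 1 of the 4 was called higher. Around the exit of the peptide tunnel, where the new chain meets the inner membrane, lie MRPL17, MRPL22, MRPL23, MRPL24, MRPL39, MRPL44, MRPL45 and MRPL47. Of these 8 peaks 1 was called higher, at MRPL44 with a log2 change of 0.60 (adjusted p = 0.0178 by limma), and 7 were not called, with changes of 0.08 to 0.36. MRPL44 was the only one of the 8 to lie above the median of promoters of similar mean, and after the loess correction it lost its call (0.31, adjusted p = 0.182 by limma) while MRPL17 and MRPL39 were called lower.

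Many member promoters are shared. In 30 of the 78 peaks a TSS of a protein-coding gene outside the family was present, and in 27 of them that gene lay on the opposite strand. Of the shared peaks 19 (63.3%) were called higher and 1 lower, with a median change of 0.648. Of the 48 peaks with no protein-coding gene outside the family, 19 (39.6%) were called higher and 2 lower, with a median of 0.355. The peak that MRPL46 and MRPS11 share is counted among these 48. The other promoters differed in the same way, with 64.0% of 1779 peaks with more than 1 protein-coding gene called higher (median 0.652) and 44.4% of 11274 peaks with 1 such gene (median 0.402). The shared member peaks also had a higher mean scaled count, with a median of 187 against 139 for the others. The part of the mean count in this difference was not tested.

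The members were CpG-rich like other promoters. Their median GC content was 59.2% and the median ratio of observed to expected CpG was 0.765, beside 62.5% and 0.732 for other promoter peaks, and 71 of 78 had a GC content of at least 50% and a ratio above 0.6. The widths ran from 435 to 2901 bp with a median of 1093 bp. Peaks at no TSS within 10 kb of a member TSS were few and shallow. There were 56 of them and 34 were tested, of which 10 (29.4%) were called higher and 3 (8.82%) lower, with a median change of 0.172. Over all tested peaks the shares were 14.3% and 13.1%. These peaks were not compared with peaks at no TSS near other promoters.

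Fixed letters were searched on both strands in the window from 250 bases before to 50 bases from the canonical TSS, in the 76 member promoters whose canonical TSS lies in a peak (75 peaks), in 12316 other protein-coding promoters with the TSS in a peak, and in all 19894 protein-coding promoters. Overlapping matches were allowed. The ETS letters CCGGAAG stood in 32 member promoters (42.1%), against 20.3% of the others in peaks and 14.1% of all. The YY1 letters AAGATGGC stood in 20 (26.3%), against 5.67% and 4.06%. The NRF1 letters GCGCATGC stood in 6 (7.89%), against 5.95% and 4.26%. At least 1 of these stood in 45 member promoters (59.2%), against 28.8% of the others in peaks, and 12 members held 2 or more kinds.

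The SP letters GGGCGG were less frequent in the members than in other promoters in peaks, in 46 (60.5%) against 76.8%, and the letters CCAAT were in 22 (28.9%) against 36.3%. TATAAA was in 4 (5.26%) against 4.77%, CACGTG in 7 (9.21%) against 10.3%, and TGACGTCA in 1 (1.32%) against 3.69%. In all protein-coding promoters the shares were 61.4%, 36.0%, 9.62%, 8.76% and 2.68% in the order of these 5 motifs. These shares describe letters in a window, and no binding was measured.

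**Figure D5:**
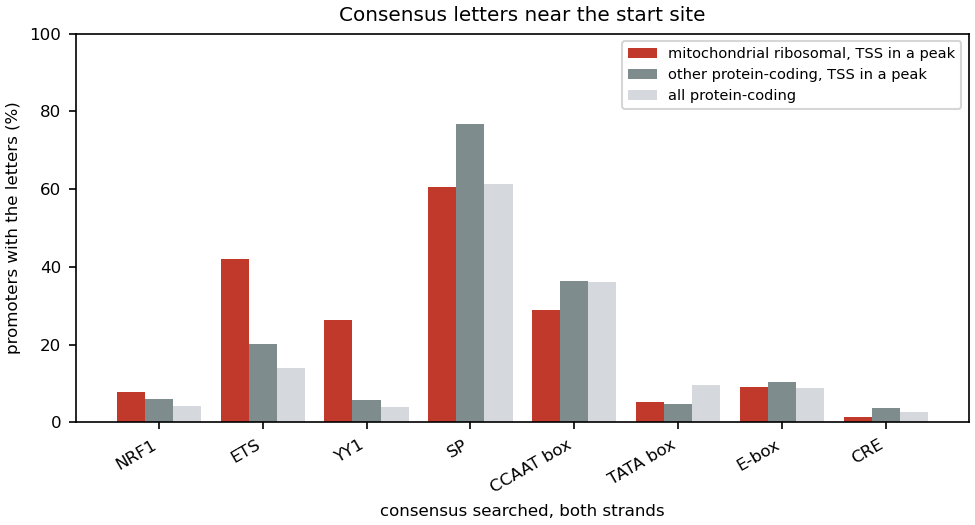
Share of promoters (y axis, percent) that hold the fixed letters of each consensus (x axis) on either strand between 250 bases before and 50 bases from the TSS, for the members, for other protein-coding promoters with the TSS in a peak, and for all protein-coding promoters. The ETS letters stand in 42.1% and the YY1 letters in 26.3% of member promoters, the widest gaps above the other promoters, and the SP letters lie below them.

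In 15 of the 20 member promoters that hold the YY1 letters (75%) they ran forward downstream of the TSS, against 60.3% of the other promoters that hold them. Examples are position 24 in MRPL49 and MRPL50 above. The ETS letters ran forward downstream of the TSS in 1 of 32 member promoters (3.12%), against 8.12% of the other promoters that hold them. Matches on either strand were also read from 60 bases before the TSS to 50 bases from it. Of the promoters that hold the ETS letters, 84.4% of members and 63.3% of others had a match there. For the YY1 letters the shares were 80.0% and 76.8%. The median log2 change was 0.537 at members with the YY1 letters and 0.366 at those without, with 10 of 20 and 25 of 56 called higher. For the ETS letters the medians were 0.63 and 0.37, with 16 of 32 and 19 of 44 called higher. Other promoters with the ETS or YY1 letters had medians of 0.62 and 0.678, and those without 0.502 and 0.522. Such a gap was not particular to these motifs. Members with the SP letters had a median of 0.537 and those without 0.365, and for the NRF1 letters the medians were 0.416 and 0.383. For TATAAA, in 4 members, they were 0.842 and 0.374, and for TGACGTCA, in 1 member, 0.781 and 0.378. They ran the other way for CCAAT (0.373 with and 0.417 without) and CACGTG (0.318 and 0.514). No test was made of these differences.

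Genes that work with these proteins were read from 5 lists, 4 of mitochondrial translation and 1 of regulators of mitochondrial transcription and biogenesis, on the deepest promoter peak of each gene. Of 79 genes 78 had a promoter peak, and 48 (61.5%) were called higher, 0 lower and 30 not called by limma, with a median log2 change of 0.602. Without the regulators, 35 of 63 (55.6%) were called higher. Over all tested peaks 14.3% were called higher and 13.1% lower, and over other protein-coding promoter peaks 47.1% and 5.3%. At an unadjusted p under 0.05, 2 of them were lower, and edgeR's quasi-likelihood test called 47 higher and 0 lower. The split depended on the scaling, since after the loess correction 23 were called higher and 16 lower, and with equal totals in peaks 33 were called higher and 6 lower. Among 5 subunits of the mitochondrial ribosome with other names, 4 were called higher. CHCHD1 changed by 0.96 ± 0.233 (SE, adjusted p = 0.000795 by limma) and GADD45GIP1 by 0.91 ± 0.239 (SE, adjusted p = 0.00194 by limma). Of 25 factors of ribosome assembly and ribosomal RNA modification 18 were called higher (median 0.79).

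The largest rises of the assembly list were at MRM3, a methyltransferase of the large ribosomal RNA, and at MPV17L2, a membrane protein that takes part in ribosome assembly. MRM3 had 68.6, 84.4 and 73 scaled counts in G1 and 196.5, 251.8 and 248.3 in M-phase, a log2 change of 1.52 (adjusted p = 1.85e-09 by limma). MPV17L2 rose from 189.9, 245.3 and 204 to 588.7, 579.7 and 641.4, a change of 1.47 (adjusted p = 1.78e-11 by limma). In both the phases were far apart.

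Of 17 translation factors 7 (41.2%) were called higher (median 0.48), with MTRFR, a rescue factor for stalled ribosomes, at 1.22 and MTFMT, which formylates the initiator tRNA, at 1.04. Of 16 mitochondrial aminoacyl-tRNA synthetase genes with a peak, 6 (37.5%) were called higher (median 0.305). In lists of this size both shares were near the 47.1% of other protein-coding promoter peaks. The lists were not compared with promoters of similar mean count. The largest rises among the synthetases were SARS2, through the peak it shares with MRPS12, and CARS2 at 1.35. CARS2 had 3 promoter peaks, and this value is of the deepest. Whether that peak lies at the main TSS of CARS2 was not checked. The list of transcription and biogenesis regulators had 13 of 15 called higher (median 0.852), led by the coactivator PPARGC1A at 1.46 and by YY1 at 1.46. VARS2, the remaining gene of the lists, had no promoter peak among those analysed here.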

How the data were processed

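The ATAC-seq libraries of T98G cells were used, 3 from G1 and 3 from M-phase, and the other samples of the series were not analysed here. The authors trimmed adapters with cutadapt, mapped reads to hg19 with Rbowtie in QuasR, keeping 1 location for reads with up to 3, discarded reads of the mitochondrial genome (samtools), and merged the replicates before broad peaks were called (macs2). Tool versions and any shift for the transposase are not given in the sources used here. The signal values in the deposited table are counts of reads in peaks, reduced by the authors to the size of the smallest library and rounded; how the HiSeq and NextSeq runs of an M-phase replicate were joined is not stated. The table's log2 column and the SD beside it hold the authors' own comparison and were not used. The number of other columns of sample values left out was 0.

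Limma 3.58.1 in R 4.3.3 was fitted to log2(scaled count + 8), with no covariates, for the 73121 peaks that reached, in 3 or more libraries, the equivalent of 10 scaled counts at the median library size, with 15 or more in all. The pseudocount understates changes of low peaks. Adjusted p-values are Benjamini-Hochberg over all tested peaks. Dividing by the value of 1 read gave whole numbers within rounding for 99.86 to 100% of values in each column, with 4333935 to 5365024 reads in peaks in G1 and 12470564 to 14202790 in M-phase, and edgeR 4.0.16 was run on these reads as an alternative. G1 values therefore carry more counting error.

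Mapping to several locations lets near-identical sequences share reads. The members, the gene lists, the motifs and the subunit classes were chosen with earlier results of these data known. Values are given for members called lower, the 6 largest rises and 6 smallest changes, the 4 highest and 4 lowest means per kb, the 4 farthest above and below promoters of similar mean, genes with more than 1 peak and those without one, and 2 genes per other list; MRPL13, MRPL30, the subunits of the stalk and tunnel exit and the calls after loess were named after their values were seen. Alternatives were other scalings, filters, a pseudocount of 1, edgeR, a replicate block, leaving out each replicate, and TSSs of protein-coding transcripts alone.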

Additional observations from a re-analysis of the deposited data

How the results depend on the processing

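The median change of the members stayed positive under every alternative run. With equal totals in peaks it was 0.15, with 21 members called higher and 7 lower, and after the loess correction 0.139, with 21 higher and 10 lower. Of the 78 tested genes of the 5 other lists, 23 were called higher and 16 lower after the loess correction. The shares over all tested peaks in that setting were 10.8% and 13.6%. The median change of other promoter peaks fell alongside, to 0.067 and 0.064. MRPS26 turned to -0.331 with equal totals and to -0.681 after the loess correction; the cause was not tested. With TMM scaling 38 members were called higher and 4 lower, and with edgeR 38 and 3. The lower calls numbered 1 without the low-value filter and 1 with a pseudocount of 1. Leaving out a replicate gave 27 to 48 members called higher, 1 to 3 called lower and medians of 0.36 to 0.566. The lowest higher count came without M-phase replicate 3 and the highest without G1 replicate 3.

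With the replicate number as a block, 39 members were called higher and 3 lower. Deviations of same-numbered libraries from their phase means correlated at 0.00594, -0.0101 and 0.0284, so no shared deviation by replicate number was seen. These values cannot tell whether same-numbered libraries were prepared together. Depth limits the shallow members: the G1 libraries hold the fewer reads, and peaks such as MRPL52 and MRPS22 have standard errors near 0.27.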
